A study of Ovis aries with 15 samples.

Results

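Fatty acid oxidation genes were followed in the liver of fetal sheep (Ovis aries) at gestational days (GD) 100, 124 and 144. The group was set by gene name and covers fatty acid uptake and activation, the carnitine shuttle, mitochondrial and peroxisomal beta-oxidation, and PDK4. Of its 36 genes, 34 were found among the 31411 genes of the deposited count table, and CD36 and SCP2 are not analysed here. All 34 passed the filter on low counts, as did 16977 genes of the table. The libraries were poly(A) libraries of whole liver tissue, 4 from GD100, 5 from GD124 and 6 from GD144. The labels name no breed, sex, treatment or genotype, and whether each library is a fetus of its own is not stated, so p-values cover the spread between libraries, which may be technical.

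Fatty acids are made reactive by acyl-CoA synthetases and enter mitochondria as carnitine esters, and CPT1A sets the rate of that entry. In the mitochondrial matrix each turn of beta-oxidation runs through a dehydrogenase, a hydratase, a second dehydrogenase and a thiolase, and electrons of the first step pass over the electron transfer flavoprotein to the respiratory chain. Peroxisomes run a parallel set of enzymes that shortens very long and branched chains and the side chain of bile acid precursors. The fetus burns mainly glucose, lactate and amino acids, and the liver turns to fat as a fuel after birth.

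The 15 libraries held 24215612 to 38247295 counts, and levels are given as CPM, read counts relative to the library total after scaling by the trimmed mean of M values (TMM). The floor of detection was set at 3 counts, or 0.0797 to 0.128 CPM, and covers counting error only. The identity of the tissue was checked on 10 hepatocyte markers, whose summed level ranged between 59352 and 180220 CPM in GD100 libraries, between 225214 and 262416 CPM in GD124 libraries and between 176830 and 219062 CPM in GD144 libraries. The summed level of 10 erythroid markers ranged between 4043 and 10337 CPM in GD100 libraries, between 1621 and 3265 CPM in GD124 libraries and between 73.9 and 778 CPM in GD144 libraries. For 7 of 8 striated muscle markers present in the table the sum was 4.12 to 8.12 CPM over all libraries. In bulk tissue fewer cells of a type and less RNA per cell cannot be told apart, and the part of these marker shifts in the results below was not tested. The letters that open the sample codes differ by stage, and a difference between cohorts that follows these letters cannot be told apart from the stage. GD100 replicates 2 to 4 had a higher share of fractional counts in the whole table, up to 10.8% of genes against 5.09% in the lowest library, although only 4 of the 510 values of the 34 genes were fractional. GD100 replicate 1 stood apart in another way. Its 13 genes with names opening in KEF53_p took 13.4% of counts, the highest share of all libraries, against 3.67% to 6.02% in GD100 replicates 2 to 4.

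Most genes of fatty acid oxidation were highest at GD144. The stage mean was highest at GD144 for 28 of the 34 genes and lowest at GD100 for 28, and 26 had a higher mean at each later stage. How many of all tested genes showed these patterns was not counted. Together the 34 genes took 0.274 ± 0.041% of counts at GD100, 0.369 ± 0.026% at GD124 and 0.564 ± 0.098% at GD144 (SD, n = 4, 5 and 6).

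At GD124, 15 of the 34 genes were higher and 2 were lower than at GD100 (edgeR quasi-likelihood test, Benjamini-Hochberg adjusted p under 0.05). The same test called 16.6% of all 16977 tested genes higher and 17.4% lower. At GD144, 19 genes were higher and 1 was lower than at GD124, against 12.1% higher and 15.4% lower over all tested genes. Over the whole span 26 genes were higher and 3 were lower at GD144 than at GD100, against 27.1% and 27.9% over all tested genes. Libraries of GD124 lay above every GD100 library for 13 of the 34 genes and below every one for 2, against 11.6% and 12.6% over all tested genes. Libraries of GD144 lay above every GD124 library for 12 genes and below every one for 1, against 7.81% and 11% over all tested genes. Libraries of GD144 lay above every GD100 library for 22 of the 34 genes and below every one for 2, against 19.2% and 20.8% over all tested genes. The median log2 change of the 34 genes was 0.60 between GD124 and GD100, 0.55 between GD144 and GD124 and 1.17 between GD144 and GD100. Over all tested genes these medians were 0.02, -0.01 and 0.03. The earlier comparison rests on GD100 libraries that differed among themselves. When GD100 was represented by replicate 1 alone, an alternative chosen after seeing the data, some changes shrank and others grew. For GD124 against GD100 the log2 change was 0.004 for ACADL and 0.59 for ACADM, against 0.64 and 0.78 with all libraries. It was 1.42 for ECHS1 and 1.58 for ETFDH, against 0.92 and 0.69. For GD144 against GD100 the log2 change of DECR2 was 0.04, against 0.60. That fit has a single GD100 library, so its calls are not given.

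**Figure D1:**
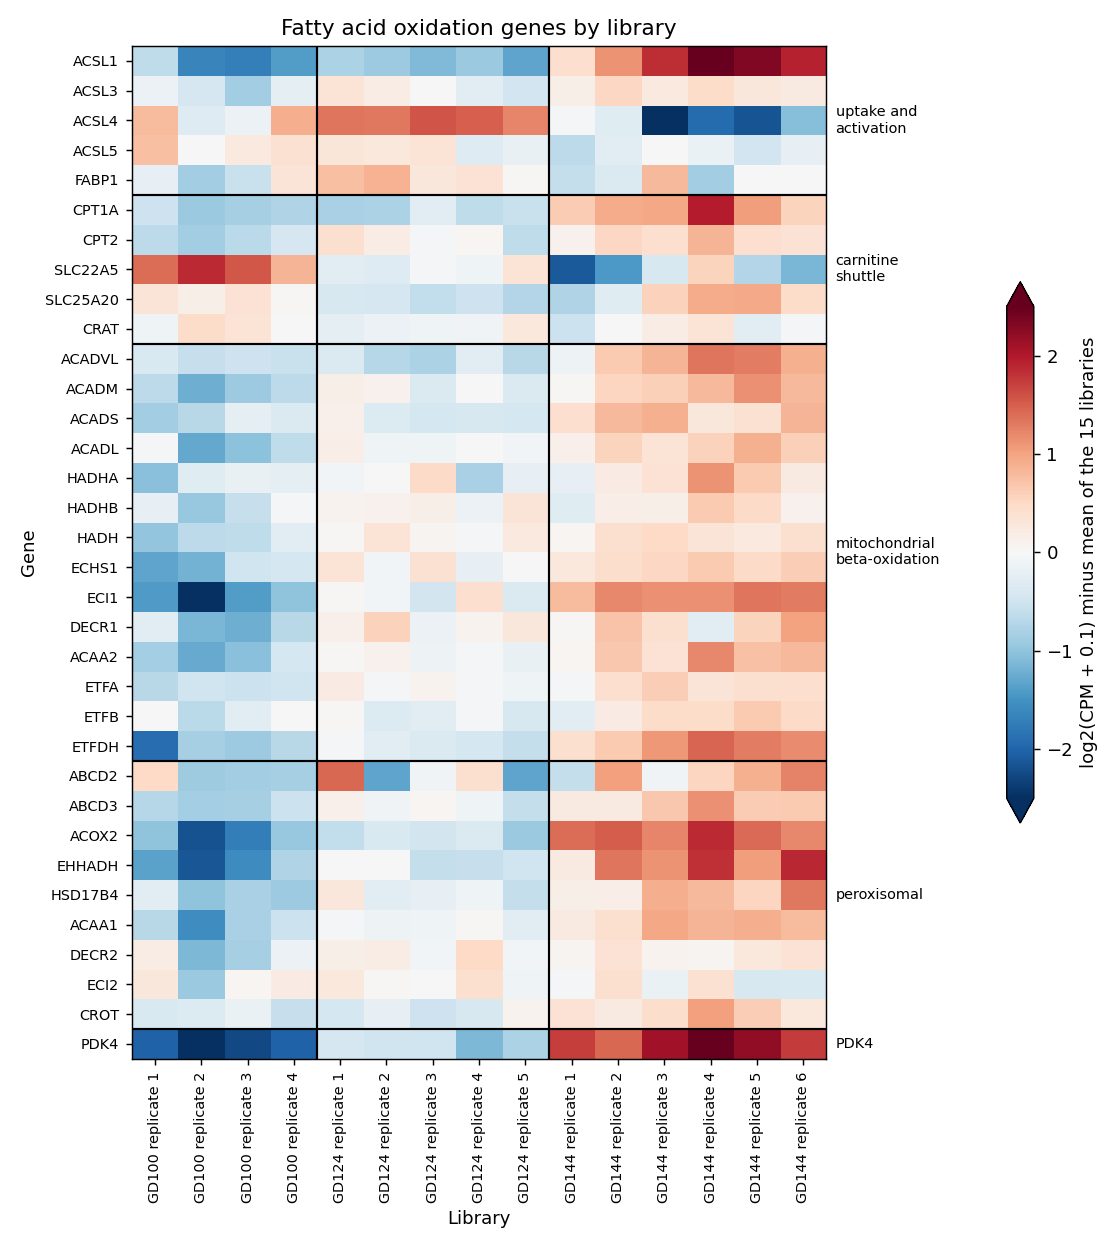
Level of each of the 34 genes (rows, grouped by step) in each of the 15 libraries (columns, grouped by stage), as log2(CPM + 0.1) minus the mean of that gene over all libraries, with colours limited to 2.5 in either direction. Red marks libraries above the gene's mean and blue those below, and most rows turn from blue at GD100 to red at GD144, while SLC22A5 runs the other way and ACSL4 is highest at GD124.

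Among the synthetases that activate fatty acids, ACSL1 was higher and ACSL4 lower at GD144 than at GD124. None of the 5 genes measured was called between GD124 and GD100, and between GD144 and GD124 1 was higher and 1 was lower. Over all tested genes, 16.6% were higher and 17.4% lower in the earlier comparison, and 12.1% higher and 15.4% lower in the later one. Calls between GD124 and GD100 were gained under alternatives for ACSL4, ACSL3 and FABP1. ACSL1, the main long-chain acyl-CoA synthetase of adult liver, had 98.9, 49.2, 46.7 and 58.1 CPM at GD100, 89.1, 81.6, 71.4, 81.1 and 61.3 CPM at GD124, and 205 to 1093 CPM at GD144 with a median of 572 CPM. Every GD144 library lay above every earlier one, and the log2 change of GD144 against GD124 was 2.94 ± 0.36 (SE, edgeR adjusted p = 4.21e-05). The change of GD124 against GD100 was 0.28 ± 0.37 (edgeR adjusted p = 0.582). ACSL4, a synthetase that prefers arachidonic acid, had 412, 192, 216 and 451 CPM at GD100, 602, 596, 709, 676 and 557 CPM at GD124, and 37.6 to 231 CPM at GD144 with a median of 89.2 CPM. All its GD124 libraries lay above those of GD100, and the log2 change of 0.98 ± 0.46 (edgeR adjusted p = 0.114) was called when only these stages were fitted (edgeR adjusted p = 0.0171). Its GD144 libraries lay below all those of GD124, with a log2 change of -2.44 ± 0.42 (edgeR adjusted p = 0.000615). It was also lower at GD144 than at GD100 (log2 -1.45 ± 0.43, edgeR adjusted p = 0.00958).

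The log2 ratio of ACSL1 to ACSL4 counts within a library lay between -2.95 and -1.96 in GD100 libraries, between -3.31 and -2.76 in GD124 libraries and between -0.17 and 4.11 in GD144 libraries. The size of this ratio depends on transcript length, which was not used, but its shift between stages does not. GD144 replicates 1 and 2 had the lowest ratios of their stage, -0.17 and 0.79, and GD144 replicates 3 to 6 had 2.35 to 4.11.

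ACSL3, an enzyme of the endoplasmic reticulum and lipid droplets, was higher at GD144 than at GD100 (log2 0.72 ± 0.17, edgeR adjusted p = 0.00175) with stage means, given here and below with the SD in the order GD100, GD124 and GD144 (n = 4, 5 and 6), of 20.4 ± 4.25, 26.8 ± 6.01 and 33.7 ± 3.51 CPM. Its change of 0.39 ± 0.17 for GD124 against GD100 (edgeR adjusted p = 0.0907) was called without GD124 replicate 5 (edgeR adjusted p = 0.0338). ACSL5 was lower at GD144 than at GD100 (log2 -0.66 ± 0.17, edgeR adjusted p = 0.00406), and its stage means were 89.4 ± 19.99, 74.1 ± 15.1 and 56.6 ± 9.04 CPM. Without GD124 replicate 4 it was also called lower at GD144 than at GD124 (edgeR adjusted p = 0.0449). FABP1, the fatty acid binding protein of the hepatocyte cytosol, stood at 260.1 ± 95.5, 435 ± 105 and 296 ± 132 CPM in the order of the stages and was not called between GD144 and GD100 (log2 0.19 ± 0.30, edgeR adjusted p = 0.618). Libraries of all stages overlapped for FABP1. Without GD144 replicate 3, at 540.1 CPM the highest of its stage, FABP1 was called lower at GD144 than at GD124 (edgeR adjusted p = 0.0211) and higher at GD124 than at GD100 (edgeR adjusted p = 0.037), and the intervals differed (edgeR adjusted p = 0.0337). Without GD100 replicate 4 it was also called higher at GD124 than at GD100 (edgeR adjusted p = 0.0276).

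Genes of the carnitine shuttle were called in both directions. CPT1A, the outer membrane enzyme that forms acylcarnitine and is inhibited by malonyl-CoA, had 51.0, 38.2, 41.1 and 43.2 CPM at GD100, 41.3, 41.9, 59.7, 46.8 and 49.4 CPM at GD124, and 107 to 285 CPM at GD144 with a median of 140.2 CPM. The GD100 and GD124 libraries overlapped, and all GD144 libraries lay above them. Its log2 change was 1.71 ± 0.22 for GD144 against GD124 (edgeR adjusted p = 5.27e-05) and 0.14 ± 0.24 for GD124 against GD100 (edgeR adjusted p = 0.677). CPT2, which re-forms acyl-CoA on the matrix side, stood at 38.4 ± 5.00, 61.6 ± 15.2 and 83.0 ± 14.5 CPM in stage order. It was higher at GD124 than at GD100 (log2 0.68 ± 0.19, edgeR adjusted p = 0.011), and the later change was 0.43 ± 0.17 (edgeR adjusted p = 0.0666). That later change passed the threshold with DESeq2 (adjusted p = 0.04996), with total counts as the scale, and without GD100 replicate 2 or 4, GD124 replicate 1 or GD144 replicate 1.

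SLC25A20, the carrier that exchanges acylcarnitine for carnitine across the inner membrane, had 42.5, 37.8, 43.8 and 34.7 CPM at GD100, 25.7, 25.4, 22.1, 23.7 and 20.5 CPM at GD124, and 20.2 to 65.8 CPM at GD144 with a median of 48.8 CPM. All GD124 libraries lay below all GD100 libraries, and 2 of the 6 GD144 libraries, replicates 1 and 2, stood at 20.2 and 27.5 CPM, near the GD124 level. The log2 change was -0.76 ± 0.26 for GD124 against GD100 (edgeR adjusted p = 0.0372) and 0.97 ± 0.24 for GD144 against GD124 (edgeR adjusted p = 0.00763). The earlier call was lost without GD100 replicate 1, 2 or 3 or any GD124 library. SLC25A20 overlaps a protein-coding gene, LOC105603546, in the RefSeq annotation of assembly ARS-UI_Ramb_v3.0.

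SLC22A5, the carnitine importer of the plasma membrane, had 15.6, 21.6, 17.3 and 10.6 CPM at GD100, 4.80, 4.68, 5.67, 5.42 and 7.47 CPM at GD124, and 1.28 to 8.62 CPM at GD144 with a median of 3.04 CPM. All libraries of GD124 and GD144 lay below those of GD100. The log2 change was -1.54 ± 0.40 for GD124 against GD100 (edgeR adjusted p = 0.00818) and -2.11 ± 0.38 for GD144 against GD100 (edgeR adjusted p = 0.00021). Between GD144 and GD124 the libraries overlapped and the change of -0.58 ± 0.36 was not called (edgeR adjusted p = 0.261), but it was without GD144 replicate 4 (edgeR adjusted p = 0.0197). CRAT, carnitine acetyltransferase, had stage means of 111 ± 20.8, 93.6 ± 13.7 and 95.3 ± 20.6 CPM and was not called in any comparison (edgeR adjusted p = 0.301 for GD144 against GD100). The 4 genes listed for carnitine synthesis were all higher at GD124 than at GD100, against 16.6% higher over all tested genes. BBOX1, whose enzyme makes carnitine in the last step, stood at 46.0 ± 19.9, 107 ± 18.3 and 81.8 ± 15.2 CPM in stage order (log2 1.22 ± 0.23 for GD124 against GD100, edgeR adjusted p = 0.00116). TMLHE, of the first step, stood at 5.21 ± 1.12, 16.3 ± 8.81 and 16.3 ± 5.10 CPM (log2 1.65 ± 0.34, edgeR adjusted p = 0.00207).

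**Figure D2:**
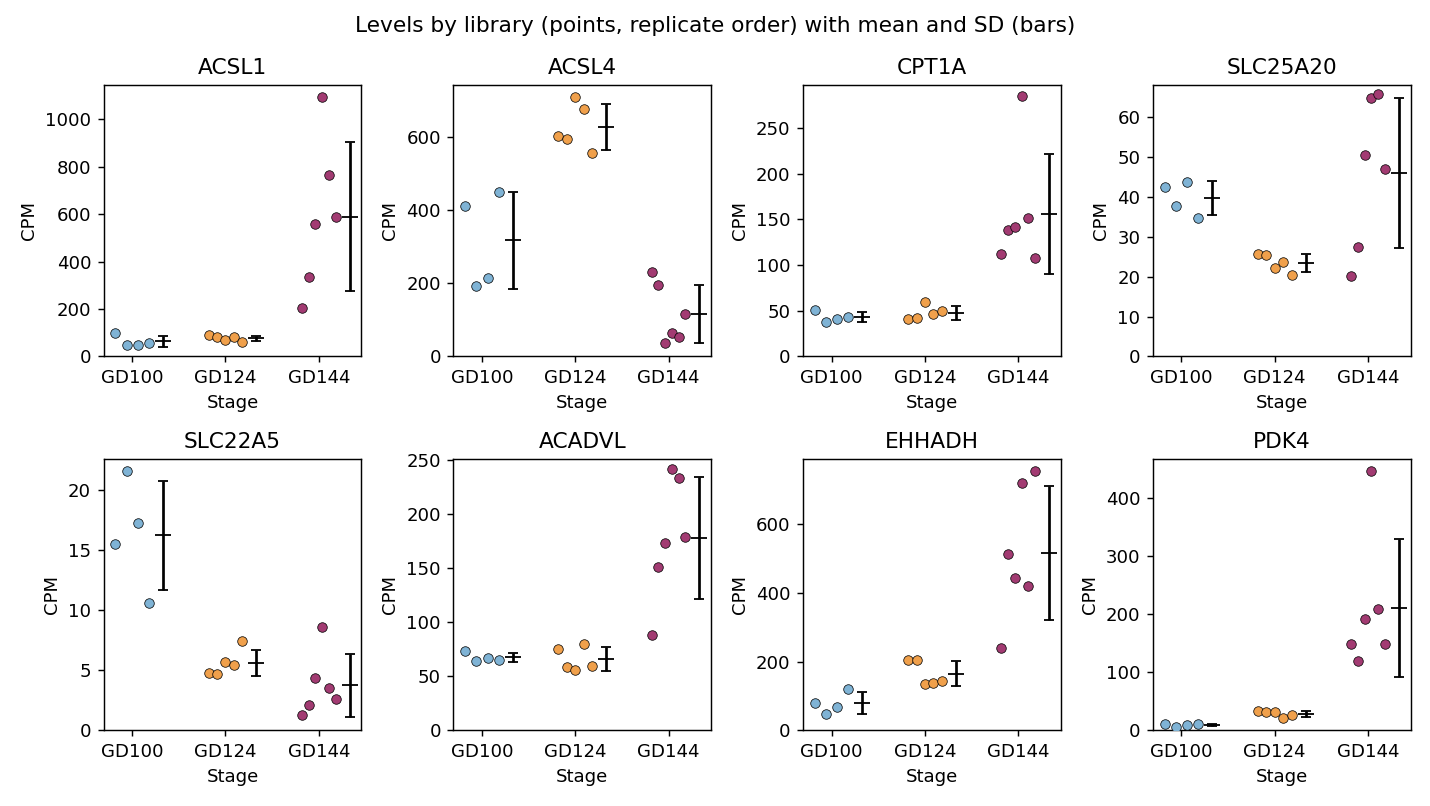
Level in CPM (linear axis from 0, scaled separately for each gene) of 8 genes in every library by stage; points are libraries in replicate order and bars show the mean and SD (n = 4, 5 and 6). ACSL1, CPT1A and ACADVL change little between GD100 and GD124 and are higher at GD144, PDK4 and EHHADH climb over both intervals, and SLC25A20 is lowest at GD124 in mean.

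Among the 14 genes of mitochondrial beta-oxidation, 9 were higher at GD124 than at GD100 and 9 were higher at GD144 than at GD124, with 0 lower in either comparison. All 14 were higher at GD144 than at GD100, and their median log2 change over that span was 1.22. The shares higher over all tested genes were 16.6% (GD124 against GD100), 12.1% (GD144 against GD124) and 27.1% (GD144 against GD100). The shares lower were 17.4%, 15.4% and 27.9%. The acyl-CoA dehydrogenases open each turn for chains of different length. ACADVL, for very long chains, had 73.3, 64.3, 66.9 and 65.3 CPM at GD100, 75.2, 58.8, 55.4, 79.9 and 59.2 CPM at GD124, and 87.9 to 241 CPM at GD144 with a median of 176 CPM. Its GD100 and GD124 libraries overlapped (log2 -0.04 ± 0.22, edgeR adjusted p = 0.915) and all GD144 libraries lay above them (log2 1.43 ± 0.21 for GD144 against GD124, edgeR adjusted p = 0.00013). ACADM, the medium-chain enzyme, had 71.2, 48.0, 59.8 and 71.3 CPM at GD100, 125, 122, 87.3, 114 and 87.2 CPM at GD124, and 114 to 248 CPM at GD144 with a median of 183 CPM. It was higher at GD124 than at GD100 (log2 0.78 ± 0.20, edgeR adjusted p = 0.00813) and higher again at GD144 (log2 0.76 ± 0.18, edgeR adjusted p = 0.0053), although GD144 replicate 1 lay within the GD124 range. ACADS, for short chains, had stage means of 40.7 ± 8.48, 47.9 ± 9.08 and 90.1 ± 16.8 CPM, with a call only in the later interval (log2 0.91 ± 0.16, edgeR adjusted p = 0.000677). ACADL, the long-chain enzyme, stood at 52.7 ± 21.1, 82.3 ± 6.99 and 120.2 ± 21.1 CPM. It was called in both intervals near the threshold (edgeR adjusted p = 0.0275 in the earlier and 0.0416 in the later interval). The earlier call of ACADL was lost without GD100 replicate 2 or 3 or GD124 replicate 1, and the later one without any of GD124 replicates 2 to 5 or GD144 replicates 2, 5 and 6.

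For the enzymes of the following steps, ECHS1 and HADH were called in the earlier interval and not in the later one, and no difference between the intervals was called for either. ECHS1, the short-chain hydratase, had 103, 113, 182 and 189 CPM at GD100, 325, 244, 336, 224 and 259 CPM at GD124, and 309 to 405 CPM at GD144 with a median of 363 CPM. It was higher at GD124 than at GD100 (log2 0.92 ± 0.20, edgeR adjusted p = 0.00236), while the later change was 0.39 ± 0.17 (edgeR adjusted p = 0.112). The later change was called when only GD144 and GD124 were fitted (edgeR adjusted p = 0.0274). HADH, the short-chain hydroxyacyl-CoA dehydrogenase, likewise stood at 51.9 ± 10.7, 87.5 ± 9.87 and 100.1 ± 10.9 CPM in stage order (log2 0.76 ± 0.15 and edgeR adjusted p = 0.00138 for GD124 against GD100, log2 0.19 ± 0.13 and edgeR adjusted p = 0.303 for GD144 against GD124). ACAA2, the matrix thiolase, was higher in both intervals, with means of 125 ± 31.3, 222 ± 17.7 and 366 ± 98.6 CPM, and its log2 change of GD144 against GD100 was 1.56 ± 0.21 (edgeR adjusted p = 1.25e-05).

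HADHA and HADHB, the subunits of the trifunctional protein that handles long chains, had, together with ETFB, the smallest log2 changes of this set over the whole span. HADHA stood at 53.1 ± 13.1, 67.3 ± 21.0 and 95.8 ± 31.8 CPM and HADHB at 71.5 ± 19.2, 102 ± 11.7 and 111 ± 25.4 CPM in stage order. For both, libraries of GD144 and GD100 overlapped, and they were called over the whole span (log2 0.85 ± 0.27 for HADHA and 0.64 ± 0.19 for HADHB, edgeR adjusted p = 0.0123 and 0.01) but in neither interval. HADHB was called higher at GD124 than at GD100 without GD100 replicate 4 (edgeR adjusted p = 0.0246) or GD144 replicate 1 (edgeR adjusted p = 0.0475).

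Of the enzymes that prepare double bonds for oxidation, ECI1, the mitochondrial enoyl-CoA isomerase, had the largest log2 change among the 14 mitochondrial genes over the whole span. Its levels were 43.1, 17.6, 43.5 and 57.1 CPM at GD100, 117, 109.7, 83.2, 154 and 89.3 CPM at GD124, and 199 to 289 CPM at GD144 with a median of 259 CPM. The libraries of the 3 stages did not overlap, and the log2 change was 1.45 ± 0.27 for GD124 against GD100 (edgeR adjusted p = 0.000894) and 1.21 ± 0.24 for GD144 against GD124 (edgeR adjusted p = 0.00122). DECR1, the 2,4-dienoyl-CoA reductase, stood at 30.2 ± 9.36, 60.0 ± 11.3 and 71.8 ± 22.5 CPM and was called in the earlier interval (log2 0.99 ± 0.25, edgeR adjusted p = 0.00684) and not in the later one (log2 0.26 ± 0.22, edgeR adjusted p = 0.421).

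Among the electron acceptors of the first step, ETFDH, the membrane dehydrogenase that hands electrons to ubiquinone, had 7.96, 16.8, 15.9 and 18.6 CPM at GD100, 29.5, 24.7, 23.3, 22.1 and 19.7 CPM at GD124, and 39.5 to 82.3 CPM at GD144 with a median of 65.9 CPM. GD144 libraries lay above all others, with a log2 change of 1.39 ± 0.22 for GD144 against GD124 (edgeR adjusted p = 0.000252). Its earlier change of 0.69 ± 0.24 (edgeR adjusted p = 0.036) lost its call without GD100 replicate 1, 2 or 3 or GD124 replicate 1, 2 or 3. That call was also lost with total counts as the scale (edgeR adjusted p = 0.113) and with the replicate number as a block (edgeR adjusted p = 0.0514). The flavoprotein subunits ETFA and ETFB stood at 62.5 ± 3.70, 93.5 ± 8.06 and 118 ± 16.7 CPM and at 100.1 ± 20.6, 101 ± 13.1 and 149 ± 30.4 CPM in stage order. ETFA was called in both intervals and ETFB in the later one (log2 0.56 ± 0.17, edgeR adjusted p = 0.0194). The later call of ETFA (edgeR adjusted p = 0.0372) was lost without any of GD124 replicates 2 to 5 or GD144 replicates 2, 3, 5 and 6, and that of ETFB without GD124 replicate 2 or 5. ACADM and ETFB each overlap a long noncoding RNA gene, and SLC22A5 a pair of them, in the same annotation, and it is not known whether counting used the strand.

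Among the 9 peroxisomal genes measured, 4 were higher at GD124 than at GD100 and 6 were higher at GD144 than at GD124. Over the whole span 7 were higher at GD144 than at GD100, with 0 lower. Of all tested genes, 16.6% were higher in the earlier interval and 12.1% in the later one. Over the whole span these shares were 27.1% higher and 27.9% lower. ACOX2, the oxidase for branched chains and bile acid precursors, had 42.4, 18.7, 25.6 and 44.1 CPM at GD100, 55.9, 65.2, 62.4, 66.0 and 44.98 CPM at GD124, and 195 to 313 CPM at GD144 with a median of 226 CPM. The libraries of the stages did not overlap, with a log2 change of 1.99 ± 0.21 for GD144 against GD124 (edgeR adjusted p = 1.44e-05) and 0.85 ± 0.23 for GD124 against GD100 (edgeR adjusted p = 0.00989). EHHADH, the bifunctional enzyme of straight chains, had 80.4, 46.3, 68.6 and 121 CPM at GD100, 204, 204, 135, 137 and 144 CPM at GD124, and 239 to 756 CPM at GD144 with a median of 479.6 CPM. All GD144 libraries lay above all GD124 libraries and these above all GD100 libraries, with a log2 change of 1.65 ± 0.29 for GD144 against GD124 (edgeR adjusted p = 0.000545) and 1.06 ± 0.31 for GD124 against GD100 (edgeR adjusted p = 0.0161). HSD17B4, the bifunctional enzyme of the other stereochemistry, stood at 45.6 ± 11.6, 67.6 ± 15.3 and 123 ± 39.7 CPM in stage order and was called in the later interval (log2 0.87 ± 0.22, edgeR adjusted p = 0.00776). Without GD100 replicate 1, HSD17B4 and DECR2 were also called higher at GD124 than at GD100 (edgeR adjusted p = 0.0294 and 0.00721). ACAA1, the peroxisomal thiolase, was called in both intervals and had means of 113 ± 30.5, 189 ± 13.7 and 334 ± 64.7 CPM.

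ABCD3, a transporter that brings acyl-CoA into peroxisomes, was also called in both intervals and had means of 26.8 ± 2.80, 41.4 ± 7.29 and 68.8 ± 16.8 CPM. ABCD2, a related transporter, was near the floor with 0 to 18 counts in a library, and its log2 change of 1.55 ± 0.97 between GD144 and GD100 was not called (edgeR adjusted p = 0.19). The earlier calls of ABCD3 (edgeR adjusted p = 0.0159) and EHHADH were lost without GD100 replicate 2 or 3. CROT, which exports shortened chains as carnitine esters, stood at 31.2 ± 3.61, 33.02 ± 5.81 and 57.2 ± 13.3 CPM and was higher at GD144 than at GD124 (log2 0.79 ± 0.16, edgeR adjusted p = 0.00131). DECR2, an auxiliary enzyme for unsaturated chains, stood at 92.1 ± 37.7, 134 ± 22.3 and 139.7 ± 13.9 CPM and was called over the whole span (log2 0.60 ± 0.21, edgeR adjusted p = 0.0236), a call lost without GD100 replicate 2 or 3. ECI2, an isomerase found in peroxisomes and mitochondria, stood at 235 ± 75.1, 262 ± 39.0 and 240.0 ± 60.8 CPM and was not called (log2 0.03 ± 0.23 for GD144 against GD100, edgeR adjusted p = 0.921).

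Mitochondrial and peroxisomal steps were set side by side within each library. The median log2 change of the 14 mitochondrial genes was 0.67 between GD124 and GD100, 0.55 between GD144 and GD124 and 1.22 between GD144 and GD100. For the 9 peroxisomal genes these medians were 0.62, 0.79 and 1.44. The mean log2 CPM of mitochondrial genes minus that of peroxisomal genes was 0.85 ± 0.28 at GD100, 0.90 ± 0.19 at GD124 and 0.73 ± 0.11 at GD144 (SD, n = 4, 5 and 6). Its ranges overlapped between all stages, with limits of 0.43 and 1.06 at GD100, 0.70 and 1.15 at GD124, and 0.58 and 0.89 at GD144. With ECI2, which is found in both compartments, counted as mitochondrial, the GD144 range of 0.82 to 1.06 lay below the GD124 range of 1.13 to 1.57. Only the shift of this difference between stages can be read, because its size depends on transcript lengths, and no test was run on it since the genes were chosen with results known. GD100 replicate 1, at 0.43, had the lowest value. ABCD2 took 8 counts in that library against 1 in each other GD100 library. Without ABCD2, the single gene under 1 CPM on average, the difference was -0.13 ± 0.23, -0.10 ± 0.09 and -0.27 ± 0.15 in the order of the stages. The GD100 libraries still spread from -0.44 to 0.09 without it.

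**Figure D3:**
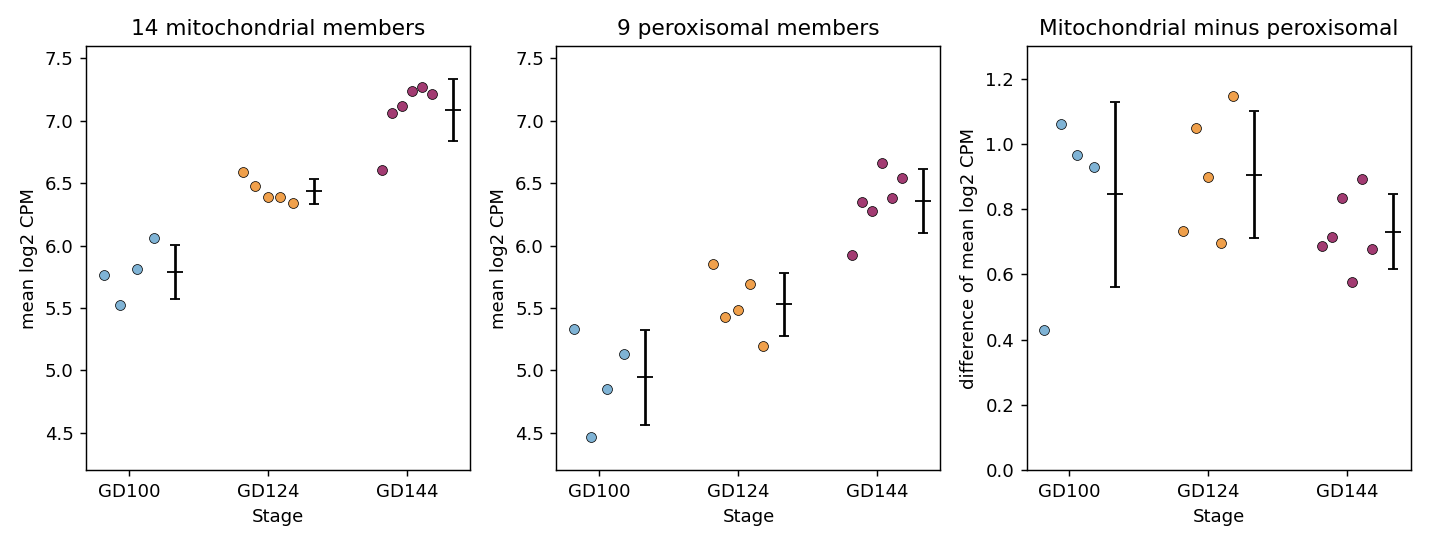
Mean log2 CPM over the 14 mitochondrial genes and over the 9 peroxisomal genes, and the difference of both, in every library by stage; points are libraries in replicate order and bars show mean and SD (n = 4, 5 and 6). Both means are higher at each later stage, while the ranges of the difference overlap, 0.58 to 0.89 at GD144 against 0.43 to 1.06 at GD100.

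PDK4, the kinase that inactivates pyruvate dehydrogenase and so spares glucose carbon when fat is burned, had 10.9, 5.87, 9.28 and 10.9 CPM at GD100, 33.1, 31.5, 31.4, 20.4 and 25.9 CPM at GD124, and 120.1 to 446 CPM at GD144 with a median of 171 CPM. The libraries of the 3 stages did not overlap. The log2 change was 1.62 ± 0.34 for GD124 against GD100 (edgeR adjusted p = 0.00214), 2.89 ± 0.32 for GD144 against GD124 (edgeR adjusted p = 1.92e-05) and 4.51 ± 0.38 for GD144 against GD100 (edgeR adjusted p = 1.66e-07). That was a 22.8-fold difference in mean CPM and the largest log2 change of the 34 genes. Of the other kinases of the complex, PDK1 stood at 13.8 ± 5.40, 48.8 ± 11.8 and 37.0 ± 11.7 CPM in stage order and rose before GD124 (log2 1.82 ± 0.30, edgeR adjusted p = 0.000495). PDK1 overlaps a protein-coding gene, LOC114112144, and a long noncoding RNA gene in the RefSeq annotation. PDK2 stood at 27.9 ± 7.47, 39.4 ± 2.80 and 60.4 ± 7.87 CPM. PDK3 stood at 11.2 ± 4.48, 7.03 ± 1.48 and 5.02 ± 1 CPM and was lower at GD144 than at GD100 (log2 -1.16 ± 0.23, edgeR adjusted p = 0.000526). PDHB, a subunit of the complex itself, was higher at GD144 than at GD124 (log2 0.95 ± 0.14, edgeR adjusted p = 0.000131). Among the 10 tested genes of the complex and its kinases and phosphatases, 6 were higher and 1 was lower at GD144 than at GD100. Over all tested genes these shares were 27.1% and 27.9%.

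The timing of the changes was compared by a test of the later change minus the earlier one, in which the GD124 libraries enter both. The intervals spanned 24 days before GD124 and 20 days after it. For 5 of the 34 genes the changes differed. The log2 difference was positive for 4 and negative for 1, against 2.15% and 3.75% of all tested genes. The 4 were ACSL1 (log2 difference 2.66 ± 0.64, edgeR adjusted p = 0.0244), CPT1A (1.57 ± 0.40, edgeR adjusted p = 0.0315), SLC25A20 (1.73 ± 0.45, edgeR adjusted p = 0.0359) and ACADVL (1.47 ± 0.38, edgeR adjusted p = 0.0325). ACSL4 was the gene with the negative difference (-3.42 ± 0.72, edgeR adjusted p = 0.0154), and its log2 change went from 0.98 to -2.44. That of SLC25A20 went from -0.76 to 0.97. No such difference was called for the other 13 mitochondrial genes of beta-oxidation or for any peroxisomal gene. With ACOX2 (1.14 ± 0.38, edgeR adjusted p = 0.0848) the difference passed the threshold with DESeq2 (adjusted p = 0.0265) and with total counts as the scale (edgeR adjusted p = 0.0315), and without GD100 replicate 2 (edgeR adjusted p = 0.0262). The call of ACSL4 held without each library in turn. The call of ACSL1 was lost without any GD124 library, that of CPT1A without GD124 replicate 1, 2, 4 or 5, that of SLC25A20 without GD100 replicate 2 or 3, any GD124 library or GD144 replicate 6, and that of ACADVL without GD100 replicate 3 or GD124 replicate 1, 2, 3 or 5.

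**Figure D4:**
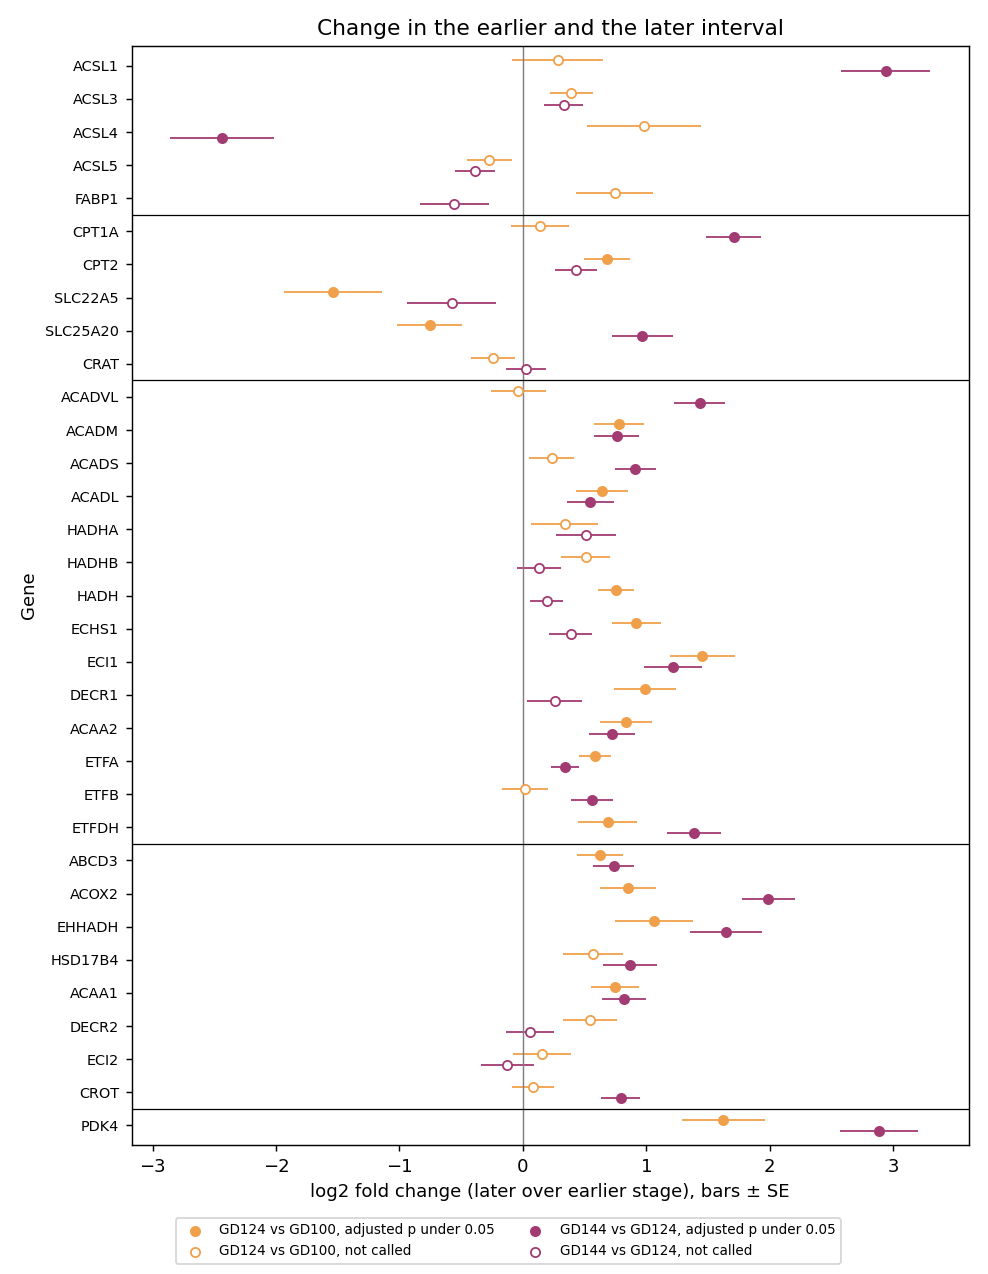
Log2 fold change with its standard error (horizontal bars) of 33 genes, ABCD2 left out for its low counts, in the earlier interval (GD124 over GD100) and in the later one (GD144 over GD124); filled points passed an edgeR adjusted p of 0.05 and lines divide the steps of the pathway. ACSL1, CPT1A and ACADVL lie near 0 in the earlier interval and between 1.43 and 2.94 in the later one, while ECI1, ACOX2, EHHADH and PDK4 lie above 0 in both.

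Calls in both intervals were made for 12 genes. SLC25A20 was lower at GD124 than at GD100 and higher at GD144 than at GD124, and the other 11 were higher in both intervals. The 11 were ACADM, ACADL, ECI1, ACAA2, ETFA and ETFDH of the mitochondrial set, ABCD3, ACOX2, EHHADH and ACAA1 of the peroxisomal set, and PDK4. The share of all tested genes called in both intervals was not counted. Of the 10 hepatocyte markers, 8 were higher at GD124 than at GD100, against 16.6% of all tested genes. At GD144 against GD124, 1 marker was higher and 1 lower, against 12.1% and 15.4% of all tested genes. The mean log2 CPM of the markers was 11.9 ± 0.66 at GD100, 13.2 ± 0.064 at GD124 and 13.1 ± 0.13 at GD144 (SD, n = 4, 5 and 6). Set against these markers within each library, the mean log2 CPM of the 14 mitochondrial genes was -6.09 ± 0.46 at GD100, -6.77 ± 0.11 at GD124 and -5.99 ± 0.18 at GD144. The GD144 range of -6.30 to -5.80 lay above the GD124 range of -6.92 to -6.63 and inside that of GD100, -6.69 to -5.70. For the 9 peroxisomal genes the values were -6.93 ± 0.46, -7.67 ± 0.23 and -6.72 ± 0.19 in stage order. Relative to the hepatocyte markers, PDK4 was at -8.70 ± 0.42, -8.39 ± 0.27 and -5.51 ± 0.69. The 5 genes of uptake and activation were at -5.30 ± 0.42, -6.17 ± 0.19 and -6.17 ± 0.077, and their GD144 range of -6.27 to -6.05 lay below the GD100 range of -5.90 to -4.99. The 5 genes of the carnitine shuttle were at -6.52 ± 0.75, -8.19 ± 0.049 and -7.64 ± 0.47, and their GD144 range of -8.17 to -6.86 overlapped the GD100 range of -7.54 to -5.81.

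Within a stage, single libraries were often the lowest or highest for many of the genes. These ranks were not counted over all tested genes, and whether they are particular to the 34 was not tested. At GD100, replicate 2 was lowest for 21 of the 34 genes and replicate 4 highest for 14. Replicate 2 also had the lowest hepatocyte sum, 59352 CPM, and the highest erythroid sum, 10337 CPM, while replicate 4 had the highest hepatocyte sum, 180220 CPM, and the lowest erythroid sum, 4043 CPM. At GD124, replicate 5 was lowest for 17 genes and replicate 1 highest for 14. At GD144, replicate 1 was lowest for 24 genes, 12 of them mitochondrial, and replicate 4 highest for 15. GD144 replicate 1 had the lowest hepatocyte sum of its stage, 176830 CPM, with an erythroid sum of 123 CPM inside the range of the other libraries. GD144 replicate 3, whose erythroid sum of 778 CPM stood apart from 73.9 to 129 CPM in the other 5 libraries, was lowest for 1 gene, ACSL4, and highest for 6.

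Genes that steer the pathway were taken from lists beside the 34, and the counts of these lists at GD144 against GD100 stand beside 27.1% higher and 27.9% lower over all tested genes. Of 15 regulators 9 were higher and 1 was lower at GD144 than at GD100, with a median log2 change of 0.62. PPARA, the nuclear receptor that drives fatty acid oxidation genes, stood at 70.9 ± 16.2, 81.3 ± 8.23 and 109 ± 14.9 CPM in stage order (log2 0.43 ± 0.14 for GD144 against GD124, edgeR adjusted p = 0.0339). Its coactivator PPARGC1A was called in both intervals with means of 8.66 ± 2.24, 22.5 ± 4.99 and 45.3 ± 11.6 CPM. LPIN1, a phosphatidate phosphatase that also acts as a coactivator, had 3.19, 1.68, 1.02 and 2.70 CPM at GD100, 2.84, 11.1, 7.45, 6.49 and 10.9 CPM at GD124, and 64.1 to 548 CPM at GD144 with a median of 136 CPM. Its GD144 libraries lay far above all others but spread over a wide range, and the log2 change against GD124 was 4.87 ± 0.67 (edgeR adjusted p = 0.000151). Enzymes of malonyl-CoA, the inhibitor of CPT1A, moved in different directions. ACACA, which makes it, was lower at GD144 than at GD100 (log2 -1.11 ± 0.15, edgeR adjusted p = 9.79e-06). MLYCD, which removes it, was higher (log2 1.48 ± 0.23, edgeR adjusted p = 5.90e-05). ACACB, the form at the mitochondrial surface, was higher at GD144 than at GD124 (log2 1.201 ± 0.24, edgeR adjusted p = 0.00129) with means of 7.15 ± 1.81, 5.32 ± 1.85 and 12.2 ± 3.11 CPM in stage order. In the RefSeq annotation PPARA, MLYCD and ACACB overlap long noncoding RNA genes, and ACACA overlaps several genes, protein-coding ones among them.

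Of 12 tested genes known as PPARA targets outside the 34, 7 were higher and 2 were lower at GD144 than at GD100, with a median log2 change of 0.69. ANGPTL4, a secreted inhibitor of lipoprotein lipase, was called in the later interval (log2 1.69 ± 0.38, edgeR adjusted p = 0.00404), with means of 4.53 ± 1.39, 6.67 ± 2.24 and 21.6 ± 15.2 CPM.

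Of 14 further genes of peroxisomal metabolism 8 were higher and 3 were lower at GD144 than at GD100, and of 16 assembly genes 8 were higher and 1 was lower, with median log2 changes of 0.83 and 0.48. CAT, which removes the peroxide that peroxisomal oxidases make, stood at 555 ± 135, 1021 ± 223 and 1592 ± 544 CPM in stage order. AGPS, of ether lipid synthesis, was lower in both intervals, with a log2 change of -1.25 ± 0.14 over the whole span (edgeR adjusted p = 2.07e-06). The assembly factor PEX3 changed before GD124 (log2 1.31 ± 0.16, edgeR adjusted p = 9.96e-05), with a later change of 0.29 ± 0.14 (edgeR adjusted p = 0.13) and a called difference between the intervals (-1.03 ± 0.25, edgeR adjusted p = 0.0238).

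Of 9 further dehydrogenases linked to the flavoprotein 7 were higher and 0 were lower at GD144 than at GD100, with a median log2 change of 1.07, and ACADSB, for branched chains from amino acids, had a log2 change of 3.53 ± 0.44 (edgeR adjusted p = 8.92e-06). Of 16 other uptake, activation and thioesterase genes 3 were higher and 6 were lower, with a median of 0.14, beside the same 27.1% and 27.9% over all tested genes. SLC27A5, a transporter and synthetase of liver, was higher at GD144 than at GD100 (log2 2.61 ± 0.38, edgeR adjusted p = 3.56e-05). ACSL6, a synthetase known from brain and red cell precursors, was lower (log2 -3.98 ± 0.58, edgeR adjusted p = 5.46e-05), and its level of 17.6 CPM in GD144 replicate 3, the library with the high erythroid sum, stood above 2.08 to 3.40 CPM in the other 5. FABP5, a fatty acid binding protein of other tissues, was lower as well (log2 -2.70 ± 0.34, edgeR adjusted p = 7.39e-06).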

How the data were processed

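The deposited table holds the authors' expected counts, estimated reads per gene in each library, without normalisation. The submitters' processing notes name DRAGEN, while its version, the build, the gene annotation and the use of strand were not given in the sources used here. Poly(A) RNA was sequenced from both ends, per the labels' protocols. Of all values 6.549% were fractional and were rounded. The genes and lists were chosen with earlier results of these data known. Groups and replicate numbers came from the sample titles. Counts of libraries within a stage differed beyond sampling noise, with a chi-square of at least 43.72 for each degree of freedom.

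Stages were compared in edgeR 4.0.16 (R 4.3.3) by quasi-likelihood F-tests, from a single robust fit to all 15 libraries in which TMM factors set the scale and each stage had a coefficient. The filterByExpr function (minimum count 10) left 16977 genes. P-values were adjusted by Benjamini-Hochberg over all tested genes within each comparison, with a threshold of 0.05. Standard errors are the log2 change divided by the square root of F. Mean log2 CPM used a prior count of 2. The procedure was tested on simulated data. Named are all 34 genes, ACACA, PPARA, PPARGC1A, ANGPTL4 and ACACB, and up to 4 genes of each further list by the size of their change between GD144 and GD100 among called genes of at least 10 CPM; some genes that this rule names are not reported here. No transcript lengths were used, so levels are not compared between genes. Gene overlaps come from RefSeq assembly ARS-UI_Ramb_v3.0, in which all 34 names matched. Alternatives were RLE factors, total counts, other filters, DESeq2 1.42.0, the stages compared alone, a replicate block and each library left out.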

Additional observations from a re-analysis of the deposited data

Results flagged for a closer look

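A library far from the others of its stage was looked for in 105 groups of 4 to 6 libraries with Dixon's test, and 5 were found, where chance gives about 1 in 20. CPT1A stood at 284.9 CPM in GD144 replicate 4, against 107.5 to 151.3 CPM in the other 5 libraries. PDK4 stood at 446.4 CPM in the same library, against 120.1 to 209.2 CPM in the others. CRAT stood at 117.5 CPM in GD124 replicate 5, against 82.12 to 90.95 CPM in the other 4 libraries. ACADS stood at 63.92 CPM in GD124 replicate 1, against 42.64 to 46.21 CPM. ABCD2 stood at 0.2527 CPM in GD100 replicate 1, against 0.03493 to 0.03912 CPM, which is 8 counts against 1 in each other library of that stage.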

How the results depend on the processing

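No gene turned its direction between a call and any alternative run. For GD144 against GD100, 26 higher and 3 lower genes were found with RLE factors, total counts, DESeq2, other filters and the stages compared alone, and without single libraries the numbers were 25 to 26 and 3 to 3. Without single libraries, 11 to 17 genes were higher and 1 to 2 lower at GD124 than at GD100, and 16 to 20 higher and 1 to 2 lower at GD144 than at GD124. The number of genes whose change differed between the intervals ranged from 1 to 6. The stage mean of the mitochondrial minus peroxisomal difference was also taken without single libraries. It ranged between 0.7743 and 0.9846 at GD100, between 0.8449 and 0.9569 at GD124 and between 0.6982 and 0.7612 at GD144. With all libraries kept and ECI2 counted as mitochondrial, this mean was 1.338, 1.322 and 0.972 in stage order. It was 0.7301, 0.5299 and 0.2965 with the carnitine shuttle added, and -0.1304, -0.09978 and -0.2733 without genes under 1 CPM. Total counts shifted the median of all genes to -0.164 for GD124 against GD100 and left 1805 higher and 4055 lower calls, with 12 of the 34 genes higher. ACADL, ETFDH and ABCD3 lost their calls in that comparison (edgeR adjusted p = 0.0563, 0.113 and 0.059). When replicate 1 alone stood for GD100, 5 genes were higher and 0 lower at GD124 than at GD100 and 2 differed between the intervals; the fit has fewer libraries. Replicate numbers did not pair the libraries: of 13 same-numbered pairs 1 had a correlation of deviations over 0.1, and a library correlated best with its own number in 3 of 26 cases. With the replicate number as a block, 13 genes were higher and 1 lower at GD124 than at GD100, 15 and 1 at GD144 than at GD124, 26 and 3 at GD144 than at GD100, and 1, ACSL4, differed between the intervals. Calls lost with the block were those of SLC25A20, ACADL and ETFDH for GD124 against GD100. For GD144 against GD124 they were those of SLC25A20, ACADL, ETFA and ETFB. The depth limits ABCD2 alone among the 34 genes.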

Other observations

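Within GD144, genes of fat handling outside the 34 also differed between libraries. LPIN1 stood at 548 CPM in GD144 replicate 4 and 399 CPM in replicate 6, against 64.1 to 172 CPM in the other 4 libraries. ANGPTL4 stood at 51.7 CPM in GD144 replicate 4, against 10.9 to 21.7 CPM in the other 5, and PEX11A, a factor of peroxisome division, at 30.5 CPM against 7.44 to 17.5 CPM. PEX11A overlaps a protein-coding gene, PLIN1, in the RefSeq annotation. GD144 replicate 4 was the highest library of its stage for 15 of the 34 genes, among them PDK4, CPT1A, CPT2 and ACSL1. For 4 of them, FABP1, ACADS, DECR1 and DECR2, it was the lowest. MLYCD and PPARA were also highest in replicate 4, while PPARGC1A was highest in replicate 6 (63.1 CPM against 53.4 CPM in replicate 4). The labels give no time, feeding state or delivery status for these libraries.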
